A study of Mus musculus with 18 samples.

Results

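The Δθ1 comparison set 3 Capture-C libraries from mice with a mutated θ1 CTCF site, written Dtheta1 in the labels, against the 3 WT libraries of the same experiment. These 6 samples were taken by their genotype and experiment labels from 18 samples in the series. All of them were primary Ter119+ erythroid cells from the spleens of adult C57BL/6 mice (C57BL/6J per the methods) given phenylhydrazine, which destroys red cells and fills the spleen with erythroid precursors. The Δθ1 mice were homozygous for a CRISPR-Cas9 edit of the θ1 site and their labels give no other change, while the WT mice carried none. The Δθ2 and Δθ1θ2 mice of the same experiment, with 3 libraries each, were used only where a sentence says so. Each library was a separate biological replicate per the methods, although the number of founder animals behind the line is not given in the sources used here. No RNA was read in these libraries, so the erythroid label could not be checked against marker genes.

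CTCF is a zinc finger protein that binds DNA in one orientation and halts the cohesin complex as it extrudes loops of chromatin, which places the edges of self-interacting domains. The mouse α-globin cluster lies in such a domain, a sub-TAD nested in a larger TAD on chromosome 11. Its enhancers lie in and beside *Nprl3* and act on the paired adult genes *Hba-a1* and *Hba-a2*. Each adult gene is followed by a θ-globin gene, *Hbq1b* after *Hba-a1* and *Hbq1a* after *Hba-a2*, and a CTCF site lies at the start of each θ gene. Capture-C reads which DpnII fragments were ligated to a chosen viewpoint fragment, so each count stands for ligation between a promoter and another place in the genome. The comparison asks how contacts of the promoters were arranged when the CTCF site between the α-globin genes was lost.

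The DNA around both θ sites is shown because the site that was edited has a near copy beside the other α-globin gene, and because the letters bear on how well reads can be told apart. Both stretches are read from the + strand of mm9, 5′ to 3′, and the capitals mark GCCCCCT, the reverse complement of AGGGGGC, which is a part of the CTCF motif. The θ1 stretch is chr11:32186908-32186966 and the θ2 stretch is chr11:32200013-32200071.
θ1: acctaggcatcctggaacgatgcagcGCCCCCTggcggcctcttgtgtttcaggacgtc
θ2: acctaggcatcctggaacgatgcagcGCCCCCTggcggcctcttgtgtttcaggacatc
The pair differed at 1 of 59 bases. Between the capitals and the annotated start of the θ gene lay 24 bases at θ1 (*Hbq1b*) and 23 at θ2 (*Hbq1a*). The letters AGGGGGC occurred once, in reverse orientation, in the 564 bp DpnII fragment over θ1. They occurred at 2 places in the 645 bp fragment over θ2, once on each strand. On either strand, they were present in 5.53% of the DpnII fragments of chromosome 11 within 10% of the θ1 fragment's length.

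The viewpoint fragments were *Hba-a1* at chr11:32182969-32183821, *Hba-a2* at chr11:32195804-32196638, the adult β-globin genes at chr7:110961967-110962817 and chr7:110975976-110976456, and *Slc25a37*, which encodes the mitochondrial iron importer mitoferrin, at chr14:69902454-69903469. The labels call the β-globin viewpoints Hbb-b1 and Hbb-b2 in that order, while GENCODE M1 annotates *Hbb-b2* at the former and *Hbb-b1* at the latter, and the viewpoints were summed here. The ends of the α-globin viewpoints could not be told apart by sequence. The left end of either fragment is printed to show it, from chr11:32182969-32183028 and chr11:32195804-32195863, with capitals kept for bases that differ.
Hba-1 left end: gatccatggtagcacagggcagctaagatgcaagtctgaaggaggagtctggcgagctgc
Hba-2 left end: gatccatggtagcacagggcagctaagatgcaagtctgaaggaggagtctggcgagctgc
None of these 60 bases differed, and none of the last 60 did. Of all 40-base windows in the Hba-1 and the Hba-2 viewpoint fragment, 83.8% and 85.7% recurred within the TAD, compared with 1.72% in the enhancer arm defined below. Between 48.4% and 58.9% of the fragments on other chromosomes were listed under both α-globin viewpoints in each library. For the β-globin viewpoints this was 49.1% to 58.6% in the 6 libraries. The promoters of each pair were therefore summed, values for one of them are partly values of the other, and an event listed under both is counted more than once in the sum.

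The Δθ1 libraries were shallow and stood apart from WT at every viewpoint, including those on chromosomes 7 and 14 that were not edited. They held 8820 to 22935 counts each against 65610 to 159777 in WT, and 1984 to 5328 against 19465 to 51131 counts in cis for the α-globin promoters, where cis means on the viewpoint's own chromosome and more than 1 kb from a viewpoint. The cis share of the α-globin promoters was 73.3%, 72.7% and 73.4% in WT replicates 1 to 3 and 64.6%, 64.9% and 64.4% in Δθ1. For the β-globin promoters it was 67.4%, 68.6% and 63.7% in WT and 58.0%, 52.3% and 57.8% in Δθ1. For the mitoferrin promoter it was 70.6%, 69.0% and 69.9% in WT and 58.0%, 56.6% and 61.4% in Δθ1. At all 3 loci every Δθ1 library lay below every WT library (exact permutation test, two-sided, p = 0.1 at each, the smallest that 3 against 3 allows). Fragments of low GC content took smaller shares in Δθ1 for both globin loci. Of the α-globin counts over 1 Mb away, the tenth of fragments lowest in GC took 11.1%, 11.9% and 6.39% in WT and 5.82%, 4.46% and 4.70% in Δθ1, so that WT replicate 3 lay next to the Δθ1 libraries. For the β-globin promoters it took 7.75% to 12.2% in WT and 5.33% to 6.77% in Δθ1, and for the mitoferrin promoter the groups overlapped (up to 10.9% in both). The part that cis share and GC content played in the results below was not tested beyond the values given beside them.

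**Figure D1:**
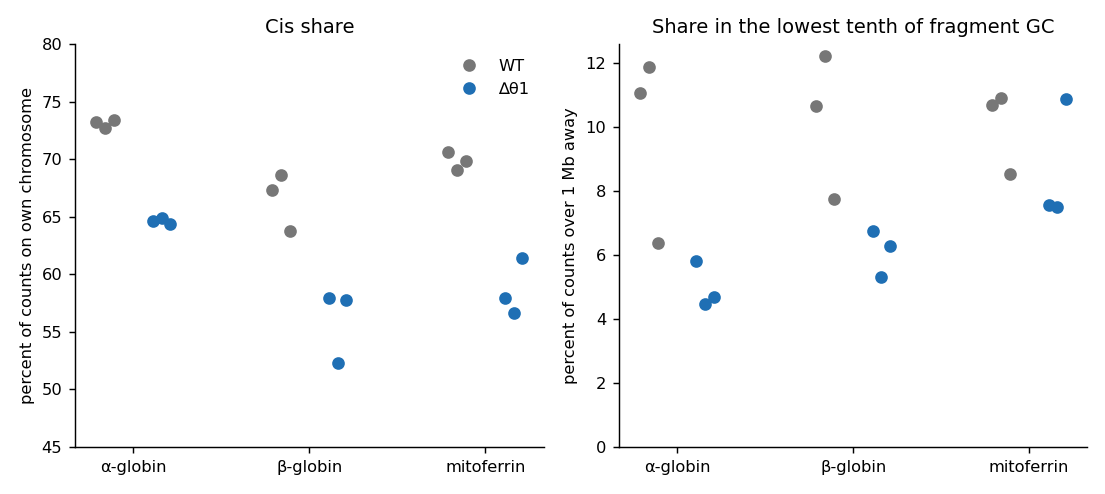
Left, percent of counts outside the viewpoint zones that lie on the viewpoint's own chromosome, with the axis from 45 to 80. Right, percent of counts over 1 Mb away in the tenth of fragments lowest in GC content; each point is 1 library, WT in grey and Δθ1 in blue. The Δθ1 cis shares (52.3% to 64.9%) lie below the WT shares at each locus.

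Across the α-globin locus, the promoters of Δθ1 cells gave lower shares of cis counts than those of WT cells in every library at the enhancers, the ζ-globin gene and the DNA between the promoters, without passing the test there. The far part of the chromosome downstream took a larger share, which did pass. Chromosome 11 was divided into 13 intervals. The groups did not overlap in 5 of these, 3 lower and 2 higher in Δθ1. Of the 13, 1 (7.69%) passed the test at an adjusted p under 0.01. That was the rest of the chromosome downstream, more than 1 Mb away, which took 20.6%, 21.1% and 20.2% in WT and 24.1%, 25.9% and 25.4% in Δθ1. It rose by 0.28 ± 0.05 on the log2 scale (SE, n = 3 and 3; edgeR quasi-likelihood test, adjusted p = 0.0098). The call was lost without any of WT replicates 1, 2 and 3 (adjusted p = 0.024, 0.047 and 0.019) or Δθ1 replicates 2 and 3 (0.048 and 0.030), and kept without Δθ1 replicate 1. It also ended with DESeq2 (0.20 on the log2 scale, adjusted p = 0.32), TMM factors (0.16, 0.035), the replicate number as a block (0.28, 0.065), thinning (0.34, 0.033), an offset that sets each library's GC content by its fragments over 1 Mb away (0.23, 0.017) and the largest count of both viewpoints (0.23, 0.011). On the upstream side the far part took 8.36% to 10.5% in WT and 7.91% to 10.2% in Δθ1, which overlap.

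The enhancer arm, chr11:32135980-32172142, is the upstream stretch of the sub-TAD and holds part of *Nprl3*, a gene of amino acid sensing, with the α-globin enhancers. It took 23.2%, 21.2% and 20.8% of cis counts in WT, and 17.5%, 16.7% and 18.9% in Δθ1, on 931, 589 and 374 counts. Every Δθ1 library was lower than every WT library, and the difference was −0.31 ± 0.07 (log2, SE), or 19.1% less. Its adjusted p was 0.016 and so missed the threshold of 0.01, with a range of 0.0012 to 0.11 over the alternatives.

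The ζ-globin stretch, chr11:32172143-32181398, holds *Hba-x*, the embryonic α-like gene. It took 9.69%, 9.48% and 9.43% in WT and 9.05%, 6.70% and 7.36% in Δθ1, a difference of −0.29 ± 0.11 (adjusted p = 0.089). It was −0.45 without Δθ1 replicate 1 (adjusted p = 0.0054, past the threshold), −0.19 without Δθ1 replicate 2 (0.26) and −0.98 with a zone wider by 5 kb (0.031). The DNA between the promoters, chr11:32185214-32194503, holds *Hbq1b* and the edited site itself. It took 11.2%, 10.2% and 10.7% in WT and 8.43%, 9.13% and 9.83% in Δθ1. The groups did not overlap here either, and the difference was −0.24 ± 0.07 (adjusted p = 0.049).

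Between *Hba-a2* and 1 Mb downstream no interval passed the test. The θ2 stretch, chr11:32198004-32203107, took 3.50%, 2.81% and 2.91% in WT and 3.43%, 3.48% and 3.58% in Δθ1 (log2 difference 0.18 ± 0.11). The downstream flank, chr11:32203108-32218901, lies just past the 3′ edge of the sub-TAD and took 3.89%, 3.93% and 4.03% in WT and 4.22%, 3.93% and 4.44% in Δθ1. These values overlapped, and the log2 difference of 0.08 ± 0.07 had an adjusted p of 0.35. The 3′ TAD arm, chr11:32218902-32244878, ranged from 1.88% to 1.95% in WT and from 1.24% to 2.32% in Δθ1, on a log2 difference of −0.11 ± 0.18. *Sh3pxd2b*, which encodes an adaptor protein of podosomes and is the next gene downstream, took 0.661%, 1.06% and 0.935% in WT and 1.26%, 1.72% and 0.706% in Δθ1. Its log2 difference of 0.53 ± 0.31 lay within the spread of the Δθ1 libraries, which was wider than the WT spread. From there to 1 Mb the share was 2.10% to 2.31% in WT and 2.07% to 2.46% in Δθ1.

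Upstream of the sub-TAD, the arm of the larger TAD that holds *Il9r*, *Snrnp25*, *Rhbdf1*, *Mpg* and part of *Nprl3* took 9.36%, 9.29% and 12.2% in WT and 11.7%, 11.6% and 10.8% in Δθ1. WT replicate 3 was the highest of the 6, and the difference of 0.16 ± 0.12 (log2) became −0.15 once each library's GC content was set by its far fragments. The 80.04 kb upstream of the TAD took 1.34%, 1.33% and 1.30% in WT and 1.65%, 1.78% and 1.66% in Δθ1, a difference of 0.36 ± 0.07 with an adjusted p of 0.016. The groups did not overlap there. From that stretch to 1 Mb upstream the share was 4.19% to 4.91% in WT and 4.82% to 5.29% in Δθ1.

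**Figure D2:**
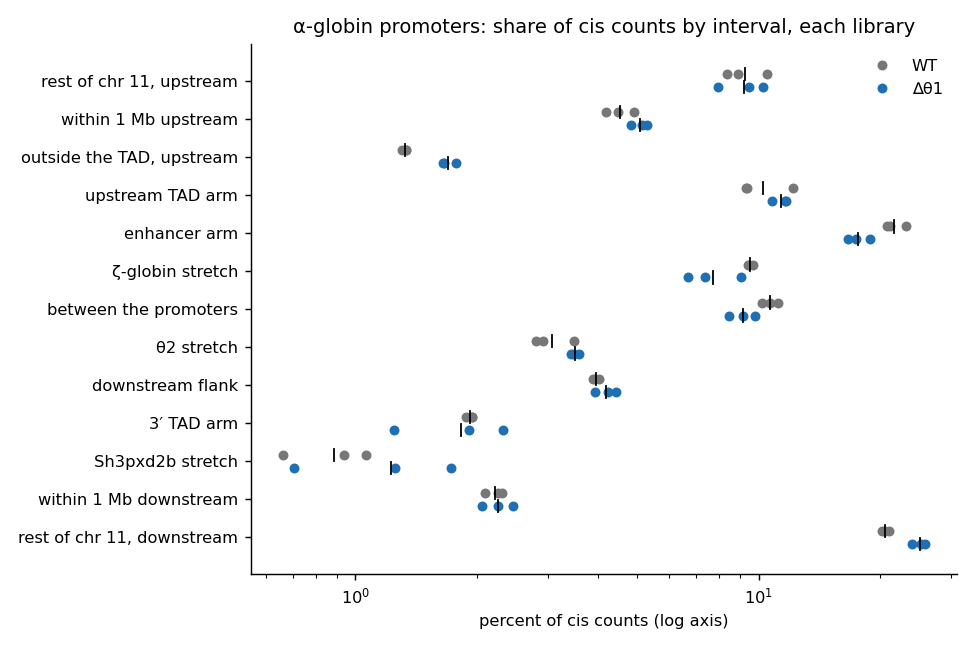
Percent of cis counts of the α-globin promoters in each of 13 intervals of chromosome 11, on a log axis, with 1 point per library (WT grey, Δθ1 blue) and the mean as a black bar. The enhancer arm reads 20.8% to 23.2% in WT and 16.7% to 18.9% in Δθ1, while the downstream flank of the 2 groups overlaps.

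In 10 kb bins, 1 of 1115 bins on chromosome 11 (0.0897%) passed the test, and it lay within *Nprl3*. The bin chr11:32140001-32150000 is centred 41.9 kb upstream of θ1. It took 5.07%, 5.01% and 3.96% of cis counts in WT and 3.02%, 2.71% and 3.07% in Δθ1, on 161, 96 and 61 counts. It fell by 0.68 ± 0.15 on the log2 scale (adjusted p = 0.0084). The call was lost without WT replicate 1 or 2 (adjusted p = 0.33 and 0.38) and without Δθ1 replicate 1 or 2 (0.028 and 0.17), on log2 differences between −0.70 and −0.62. It also ended with the replicate number as a block and when bins of at least 1 count were tested. The next bin of *Nprl3*, chr11:32150001-32160000, took 7.73%, 6.70% and 6.47% in WT and 5.44%, 5.77% and 5.80% in Δθ1, and its log2 difference of −0.30 ± 0.13 missed the threshold (adjusted p = 0.58). The *Nprl3* bins on either side overlapped between the groups. Their log2 differences were 0.02 ± 0.14 (chr11:32130001-32140000) and −0.17 ± 0.13 (chr11:32160001-32170000).

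The bins nearest the edit missed it as well. The bin that holds *Hba-a1*, *Hbq1b* and θ1 took 7.98%, 7.76% and 8.35% in WT and 6.49%, 6.93% and 8.11% in Δθ1, and Δθ1 replicate 3 lay within the WT range. The bin of *Hba-a2* took 6.84%, 5.59% and 5.28% in WT and 4.84%, 4.95% and 3.78% in Δθ1. The bin centred 28.1 kb from θ1 took 1.59%, 1.83% and 1.71% in WT and 2.50%, 2.04% and 1.92% in Δθ1, which did not overlap but gave 0.35 ± 0.18 (log2) and an adjusted p of 0.58, with the other sign under DESeq2 (−0.051) and TMM (−0.99). Groups that did not overlap were common, at 289 of all 1115 bins (25.9%). The bins at 38.1 and 48.1 kb had log2 differences of −0.13 each. Over the 12 bins from −51.9 to 58.1 kb, 8 had lower and 4 had higher values in Δθ1. The median log2 difference over all 1115 bins was −0.14, so lower values were not particular to these bins.

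**Figure D3:**
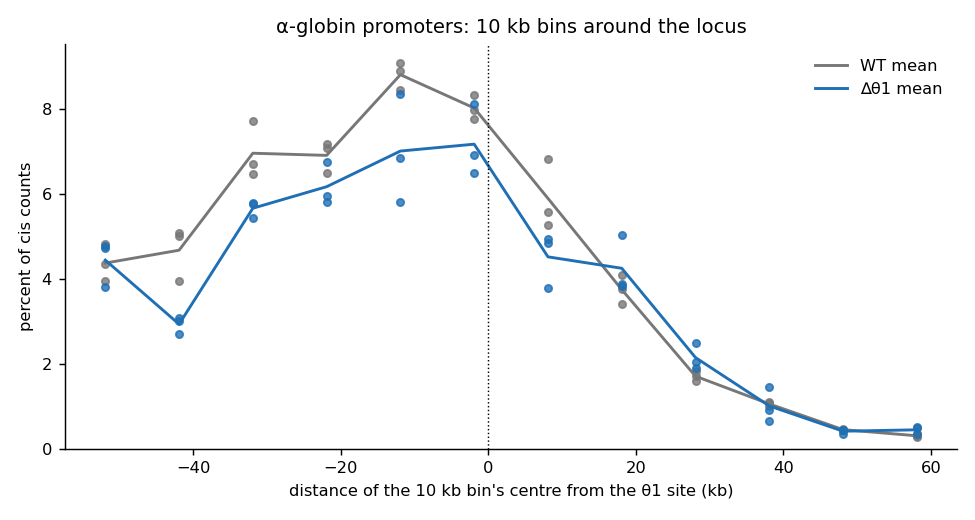
Percent of cis counts of the α-globin promoters in 10 kb bins, by the distance of the bin's centre from the θ1 site (dotted line at 0). Points are libraries and lines are group means, WT in grey and Δθ1 in blue; the bin at −41.9 kb reads 3.96% to 5.07% in WT and 2.71% to 3.07% in Δθ1, and the lines meet downstream of θ1.

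The enhancer arm stood out less against the downstream flank, past the 3′ edge of the sub-TAD, in Δθ1. The log2 ratio of the density of counts in the arm to that in the flank was 1.38, 1.24 and 1.17 in WT and 0.85, 0.89 and 0.89 in Δθ1. Every Δθ1 library lay below every WT library, and the means differed by −0.38 (0.766-fold; exact permutation test, two-sided, p = 0.1, the smallest possible here). Mean density was 601 in WT and 488 in Δθ1 in the arm, and 250.2 and 266 in the flank, in counts per kb and 100000 cis counts. The θ2 stretch, next to the flank on its inner side, overlapped between the groups (2.81% to 3.50% in WT, 3.43% to 3.58% in Δθ1). The ratio leaves that stretch out, so a change in contrast at the edge itself was not tested. The difference in the log2 ratio lay between −0.43 and −0.33 when any 1 library was left out, and was −0.24 with the GC content set by the far fragments. The other θ mutants gave 0.69 to 0.75 (Δθ2) and 0.70 to 0.88 (Δθ1θ2), so the highest Δθ1θ2 value lay within the Δθ1 range. As these values share WT libraries, no agreement between the mutants was tested from them.

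Upstream contacts likewise outnumbered downstream contacts by less in Δθ1. The log2 ratio of counts in the 100 kb before *Hba-a1* to those in the 100 kb after *Hba-a2* was 2.09, 2.08 and 2.14 in WT and 1.88, 1.79 and 1.75 in Δθ1, without overlap (difference −0.30, exact permutation p = 0.1). The other θ mutants gave 1.62 to 1.72 (Δθ2) and 1.75 to 1.86 (Δθ1θ2). Every mutant library thus lay below every WT library, and the lower ratio was not particular to Δθ1. Within the sub-TAD the balance did not separate the groups. The log2 ratio of enhancer arm density to the density between the promoters was −0.91, −0.90 and −0.998 in WT and −0.91, −1.09 and −1.02 in Δθ1 (exact permutation p = 0.2).

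**Figure D4:**
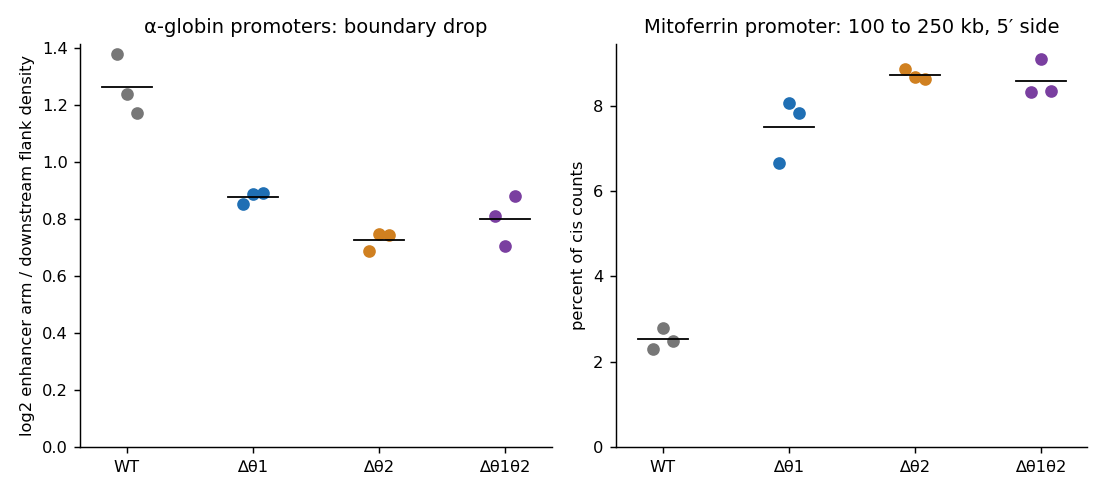
Left, log2 ratio of enhancer arm to downstream flank density for the α-globin promoters. Right, percent of the mitoferrin promoter's cis counts at 100 to 250 kb on its 5′ side; each point is 1 library and the bar is the mean of 3. Δθ1 sits at 0.85 to 0.89 on the left (WT 1.17 to 1.38) and at 6.66% to 8.06% on the right (WT 2.30% to 2.79%).

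Each α-globin promoter was then read alone. None of the 13 intervals passed from Hba-1 (0%) by edgeR, while 5 had an unadjusted p under 0.05 and DESeq2 called 1. From Hba-2, 1 of the 13 passed (7.69%), again the rest of the chromosome downstream (0.26 ± 0.03 on the log2 scale, adjusted p = 0.0051), and leaving out any 1 library ended the call (adjusted p = 0.013 to 0.043). DESeq2, TMM factors, the replicate block, thinning and the GC offset each ended it as well. The enhancer arm took 23.9%, 22.0% and 21.6% of the Hba-1 cis counts in WT and 18.0%, 16.3% and 18.6% in Δθ1. It took 22.5%, 20.5% and 20.0% of the Hba-2 counts in WT and 17.0%, 17.0% and 19.1% in Δθ1. The log2 ratio of the Hba-1 to the Hba-2 share was 0.0868, 0.104 and 0.109 in WT and 0.0862, −0.056 and −0.034 in Δθ1 (exact permutation p = 0.1, the smallest possible), a difference of −0.10. That p rests on Δθ1 replicate 1 lying barely below WT replicate 1. The other θ mutants gave 0.066 to 0.115 (Δθ2) and 0.042 to 0.067 (Δθ1θ2), the latter also below WT. Given the shared ends, reads of these promoters cannot be told apart in full.

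The fragment over θ1 itself, chr11:32186469-32187032, took 258, 344 and 202 counts in WT and 40, 34 and 22 in Δθ1. Scaled to 100000 cis counts these were 969.6, 673 and 1038 in WT and 751, 961 and 1109 in Δθ1, which overlap (exact permutation p = 0.7). The edit lies within this fragment, and the repair template that the paper gives for θ1 holds GATC, the DpnII site. An edit that follows the template would split the fragment in Δθ1, so these counts would not be for the same fragment. Their overlap therefore does not show that contact with θ1 was unchanged. As 21.6% of the fragment's 40-base windows also recur within the TAD, its count does not check the genotype label.

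The β-globin promoters on chromosome 7, which carry no edit, also differed between the genotypes. The β-globin genes are driven by a locus control region (LCR) upstream of the embryonic gene *Hbb-y*, and 3 of 12 intervals of chromosome 7 passed the test (25%), all lower in Δθ1. The LCR stretch, chr7:111001695-111026767, took 16.6%, 14.5% and 11.2% of cis counts in WT and 8.04%, 5.96% and 8.90% in Δθ1. WT replicate 3 was the lowest of its group here and every Δθ1 library lay below it. The stretch fell by 0.89 ± 0.19 on the log2 scale (adjusted p = 0.0084), and the call was lost without WT replicate 1 or 2 (adjusted p = 0.022 and 0.042) or Δθ1 replicate 1 or 2 (0.056 and 0.041).

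The DNA between the adult β-globin promoters took 10.6%, 9.62% and 8.11% in WT and 6.06%, 5.34% and 6.97% in Δθ1, and fell by 0.63 ± 0.13 (adjusted p = 0.0084), a call lost without the same 4 libraries. Over all alternatives its log2 difference ran from −2.50 to −0.36, with an adjusted p of up to 0.61. The 23.4 kb on the 3′ side took 6.08%, 6.28% and 6.15% in WT and 3.81%, 3.60% and 3.67% in Δθ1, and fell by 0.74 ± 0.07 (adjusted p = 1.0e-04), a call kept in each fit with 1 library left out. The stretch of the embryonic genes lay between these and took 8.51%, 9.51% and 8.04% in WT and 7.62%, 8.25% and 7.71% in Δθ1, which overlap. Beyond the LCR to 100 kb the share was 6.35% to 7.21% in WT and 5.05% to 6.01% in Δθ1 (−0.27 ± 0.09, adjusted p = 0.038). The other intervals out to 1 Mb, which hold olfactory receptor genes nearest the locus, had log2 differences of −0.36 to 0.16 and none passed. More than 1 Mb away the shares were larger in Δθ1, 28.7% to 32.15% against 21.8% to 25.2% on the 3′ side and 26.9% to 31.2% against 19.0% to 24.9% on the 5′ side, with adjusted p of 0.018 and 0.022. DESeq2 called 5 of these 12 intervals, 2 higher and 3 lower, against 0 higher and 3 lower in edgeR.

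The 8 intervals within 250 kb of the β-globin promoters read 38.0% to 41.2% GC weighted by counts, compared with 46.0% to 53.6% for the 9 nearest α-globin intervals. With GC content set by the far fragments, the LCR difference was −0.47 ± 0.14, that between the promoters −0.36 ± 0.10 and that on the 3′ side −0.41 ± 0.11, each with an adjusted p of 0.012. The enhancer arm of the α-globin locus was −0.39 ± 0.08 in the same fit (adjusted p = 0.014). The share of the α-globin enhancer arm over that of the LCR, a ratio chosen after the values were seen, was 0.49, 0.55 and 0.90 (log2) in WT and 1.12, 1.48 and 1.08 in Δθ1, without overlap (difference 0.59, exact permutation p = 0.1, the smallest possible).

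In bins, 4 of 1103 on chromosome 7 (0.363%) passed and all were lower in Δθ1. The bin chr7:111010001-111020000 in the LCR stretch took 8.57%, 7.68% and 5.55% in WT and 3.53%, 3.09% and 4.36% in Δθ1, and fell by 1.00 ± 0.15 (log2, adjusted p = 2.0e-08). The bin of *Hbb-y* next to it took 6.24%, 4.99% and 4.23% in WT and 3.35%, 2.47% and 3.39% in Δθ1 (−0.74 ± 0.16, adjusted p = 0.0011). The bin of *Hbb-b1* took 7.67%, 7.54% and 5.55% in WT and 4.01%, 3.89% and 3.85% in Δθ1 (−0.82 ± 0.15, adjusted p = 1.5e-05). The other called bin lay before *Hbb-b2*, at 4.01% to 4.28% in WT and 2.25% to 2.51% in Δθ1. Without WT replicate 1, WT replicate 2 or Δθ1 replicate 1, only 1 of these 4 bins stayed past the threshold, that in the LCR stretch, and with GC content set by the far fragments there was none.

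**Figure D5:**
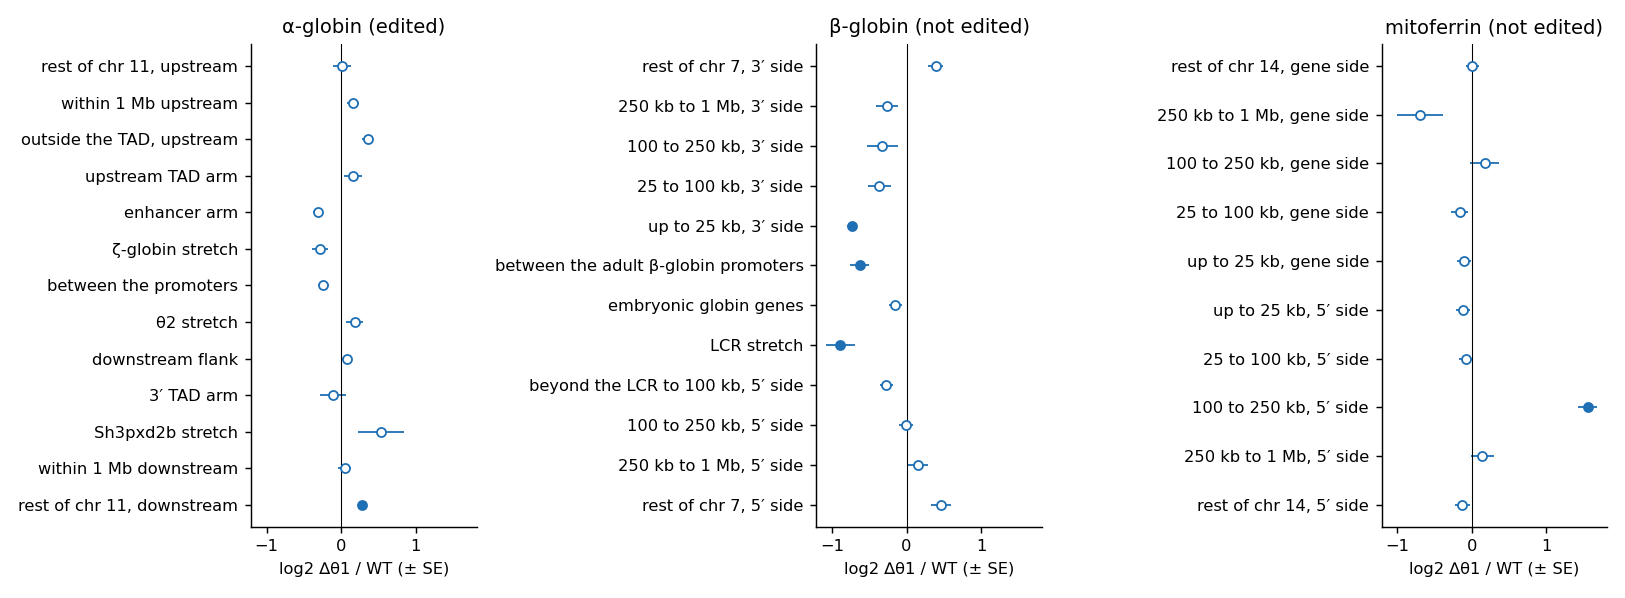
Log2 difference between Δθ1 and WT in the share of cis counts for each interval of the α-globin, β-globin and mitoferrin promoters, with the standard error as a bar. Filled points passed an adjusted p of 0.01; the LCR stretch (−0.89) and the mitoferrin interval at 100 to 250 kb (1.55) lie further from 0 than any α-globin interval.

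Of the intervals at the 3 loci, the largest log2 difference between the genotypes lay at the mitoferrin locus on chromosome 14. Of 10 intervals there, 1 passed (10%), at 100 to 250 kb on the 5′ side of *Slc25a37*, chr14:70004758-70154413, which holds *Loxl2*, a gene for a collagen cross-linking enzyme, with *R3hcc1* and *Chmp7*. It took 2.30%, 2.79% and 2.49% of cis counts in WT and 6.66%, 8.06% and 7.83% in Δθ1 (1.55 ± 0.13 on the log2 scale, adjusted p = 8.1e-14), and it held in each of its alternatives. The Δθ2 and Δθ1θ2 libraries, scaled in the same way, lay at 8.63% to 8.87% and 8.32% to 9.11%, all above WT as well. None of the other 9 intervals passed. The stretch up to 25 kb on the 5′ side took 15.8% to 17.2% in WT and 14.5% to 15.8% in Δθ1, and that on the side of the gene body 16.5% to 19.9% and 15.6% to 18.4%.

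In bins, 7 of 613 passed on chromosome 14 (1.14%), all higher and all within *Loxl2*, where the annotation also places *Gm16867*. The bin chr14:70080001-70090000 took 0.150%, 0.164% and 0.187% in WT, on 22, 40 and 23 counts, and 1.09%, 1.65% and 1.65% in Δθ1, on 37, 50 and 19 counts (3.08 ± 0.24, adjusted p = 1.2e-32). DESeq2 called 6 bins higher and 7 lower, and edgeR with TMM factors 3 higher and 15 lower. *Entpd4*, a Golgi nucleotidase gene between the promoter and *Loxl2*, had bins with log2 differences of 0.15 to 0.95, none of which passed. The bin of the *Slc25a37* viewpoint took 8.36%, 8.00% and 7.80% in WT and 6.39%, 6.15% and 6.35% in Δθ1 (−0.36 ± 0.10, adjusted p = 0.012).

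Set directly against the other mutants, the α-globin promoters of Δθ1 passed the test in some intervals against Δθ1θ2 and in none against Δθ2. Against Δθ2, 0 of 13 intervals passed (0%) by edgeR or by DESeq2, with 5 at an unadjusted p under 0.05. The enhancer arm differed by −0.13 ± 0.06 (log2) and the downstream flank, at 4.73% to 5.42% in Δθ2 and 3.93% to 4.44% in Δθ1, by −0.29 ± 0.09 (adjusted p = 0.047). Against Δθ1θ2, 5 of 13 passed (38.5%), 3 higher and 2 lower in Δθ1, where DESeq2 called 2 higher and 4 lower and TMM 1 higher. The enhancer arm was 21.5%, 21.2% and 21.5% in Δθ1θ2 and 16.7% to 18.9% in Δθ1, and was lower by 0.28 ± 0.05 (log2, adjusted p = 0.0025). The downstream flank was 5.36%, 5.67% and 5.09% in Δθ1θ2 and was likewise lower in Δθ1, by 0.37 ± 0.08 (adjusted p = 0.0070). No interval passed without Δθ1θ2 replicate 1 or 3. The cis shares of the Δθ1θ2 libraries lay at 72.2% to 73.3% for these promoters and those of the Δθ2 libraries at 70.4% to 72.2%, against 64.4% to 64.9% in Δθ1, so library properties and genotype cannot be told apart in these contrasts.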

How the data were processed

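The deposited interaction counts were used as raw counts per DpnII fragment and viewpoint. Per the methods, the authors trimmed and merged reads, digested them in silico, aligned them with Bowtie to mm9 and removed PCR duplicates. The rows labelled as combined viewpoints were left out. Fragments within 1 kb of a viewpoint were excluded. All 293876 listings on the viewpoint chromosomes matched a DpnII fragment of NCBIM37. Counts were summed into intervals fixed by the published domain limits or by distance, and into 10 kb bins with at least 10 counts over 6 samples. They were tested with edgeR 4.0.16 (quasi-likelihood, cis total as library size, Benjamini-Hochberg over all units, adjusted p under 0.01). DESeq2 1.42.0 was an alternative. Standard errors were derived from the p. Single ratios were compared by exact two-sided permutation. The fits were tested on simulated data. In α-globin bins under 100 counts, 0 of 88 changes of 2-fold and 0 of 91 of 4-fold were called. In bins of 100 counts or more, 4 of 12 and 6 of 9 were called, and 0 of 915 unchanged bins were. For 4-fold changes in bins under 100 counts, 2 of 98 were called for β-globin and 15 of 90 for mitoferrin. A bin of few counts that did not pass can therefore hold a change of this size. Total counts ranged from 8820 to 159777, so bins far from a viewpoint carry little information. Pairs of the 6 libraries shared 0.518% to 3.21% of trans fragments, so none was taken for a copy of another. Viewpoints, intervals and bins were chosen with earlier results of these data known. Named bins are those at the listed genes and at most 10 called bins per viewpoint whose groups did not overlap. A GC offset was added after the data were seen.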

Additional observations from a re-analysis of the deposited data

How the results depend on the processing

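Counts of intervals or bins past the threshold moved as follows. α-globin intervals (1) became 0 with DESeq2, TMM factors, the replicate block, thinning, the GC offset (chosen after seeing the data) and the largest count of both viewpoints, 4 at a threshold of 0.05 and 2 with all 4 groups in 1 fit. With the library size from counts within 1 Mb the count was 0 of 11, where the called far interval was not among those tested. α-globin bins (1) became 2 with DESeq2, 12 with TMM, 0 with the replicate block or at least 1 count and 2 with a zone wider by 5 kb. Hba-1 intervals (0) became 1 with DESeq2 or the GC offset, 3 with the wider zone and 2 at 0.05, in 1 fit of 4 groups or thinned. Hba-2 intervals (1) became 0 with DESeq2, TMM, the replicate block, thinning or the GC offset, 3 at 0.05 and 2 in 1 fit of 4 groups. β-globin intervals (3) became 5 with DESeq2 or all 4 groups, 6 at 0.05 and 0 with the GC offset. β-globin bins (4) became 7 with TMM, 2 with the wider zone and 0 with the GC offset or at least 1 count. Mitoferrin intervals (1) became 2 with the replicate block. Mitoferrin bins (7) became 13 with DESeq2 or all 4 groups, 18 with TMM, 11 with the replicate block, 16 at 0.05, 2 thinned, 12 with at least 30 counts and 3 in 50 kb bins. Against Δθ2 the count (0) became 1 with the wider zone, and against Δθ1θ2 (5) it became 1 with TMM and 2 with the replicate block.

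With 1 library left out, the counts ranged from 0 to 2 (α-globin and Hba-1 intervals), 0 to 4 (α-globin bins), 0 to 0 (Hba-2), 1 to 7 (β-globin intervals and bins), 1 to 1 and 7 to 10 (mitoferrin intervals and bins), 0 to 1 (Δθ2) and 0 to 5 (Δθ1θ2). The arm over flank ratio difference was −0.43 to −0.33, the arm over between-promoter ratio −0.12 to −0.03, the ratio within 100 kb −0.33 to −0.27, the Hba-1 to Hba-2 ratio −0.14 to −0.07, the θ1 fragment −63.4 to 142 counts per 100000 and the cis share −8.68 to −8.34 (α), −11.97 to −8.70 (β) and −12.6 to −10.2 points (mitoferrin). The arm over flank ratio difference was −0.24 with the GC offset. The arm over between-promoter ratio was −0.16 (Hba-1 alone), 0.013 (Hba-2 alone) and 0.062 without the top fragment of each interval, where the ratio within 100 kb was −0.23. It could not be computed with the wider zone, where the α cis share difference was −8.89 points.

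Signs turned, among values larger than their SE, as follows, and the cause was not tested. With the GC offset the downstream flank read −0.14 (Hba-1 −0.12), the upstream TAD arm −0.15 (Hba-1 −0.16, Hba-2 −0.13), the *Hbq1a* bin −0.11, the embryonic β-globin stretch 0.14, and the 3′ β-globin shells 0.056 (100 to 250 kb), 0.061 (25 to 100 kb) and 0.053 (250 kb to 1 Mb). With TMM the flank read −0.048 (Hba-1 −0.0038), the *Hbq1a* bin −1.21, the next bin −0.99, the first *Sh3pxd2b* bin −0.87, the embryonic stretch 0.044, *Entpd4* bins −0.39, −0.13 and −1.6e-05 and the last *Loxl2* bin −0.45, which thinning put at −0.31. DESeq2 gave −0.26 and −0.051 for the *Hbq1a* bin and the next, 0.015 for the outer 3′ shell and 0.13 for the embryonic stretch, and the wider zone −0.19 for the *Hbq1a* bin. The 3′ TAD arm from Hba-1 was 0.021 without Δθ1 replicate 2. TMM moved the median over all bins by −1.26 (α), −1.13 (β) and −0.86 (mitoferrin), and DESeq2 by −0.36, −0.40 and −0.29. Of 1731 single values under the alternatives, 86 newly passed the threshold and 98 lost it. The sign differed in 109, among them the 27 given here, and in the others the value as reported was within its SE.

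Same-numbered samples correlated at −0.41 to 0.22, over 0.1 in 3 of 9 cases, so the numbers were not taken to pair them. At 1984 to 5328 α-globin cis counts per Δθ1 library, single bins far from the promoters held few counts, which limits the differences that could be detected there.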
